A study of Mus musculus with 6 samples.

Results

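The miR-467 family of the Sfmbt2 locus was followed through small RNA sequencing of mouse embryonic stem cells (ESCs) grown in serum, 2i or R2i. The 10 members were chosen by name: the 5p and 3p mature miRNAs of miR-467a, miR-467b, miR-467c, miR-467d and miR-467e, out of 1907 mature miRNAs counted in the series. This choice was made with earlier results of these data known. The study had already reported miR-467c-5p, and most of the Sfmbt2 cluster, as higher in serum. All 10 had reads, and 9 passed the filter on low counts (571 of 1907 did in all); mmu-miR-467b-3p did not and is given as counts. The members were far more abundant in serum than in either inhibitor medium: together they took 0.505% and 0.50% of the 2 serum libraries, 0.0501% and 0.0494% of the 2i libraries, and 0.0969% and 0.0862% of the R2i libraries.

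The study compared 3 media in 2 C57BL/6 ESC lines, RB18 and RB20, with 1 library per line and medium (6 libraries). Both lines had been derived in R2i with LIF before cells were moved to the other media, so serum and 2i cells shared an R2i origin, and the labels give more than 10 passages for all 6 libraries. Serum cells grew in 15% fetal bovine serum. The 2i cells grew in serum-free N2B27 with 1 µM PD0325901, a MEK inhibitor, and 3 µM CHIR99021, a GSK3 inhibitor, and R2i cells in N2B27 with 1 µM PD0325901 and 10 µM SB431542, an inhibitor of the TGF-β type I receptor. All cells, serum included, received 1000 U/ml LIF and grew without feeders. Each library was made from a pool of 3 cultures of a line, so n = 2 lines per medium throughout.

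MicroRNAs are short RNAs cut from hairpins in longer transcripts. The hairpin is trimmed to a duplex whose 5′ and 3′ arms can each be loaded into an Argonaute protein, and bases 2 to 8 of the loaded arm, the seed, guide it to target mRNAs. The miR-467 hairpins belong to a rodent cluster of repeated miR-297, miR-466, miR-467 and miR-669 genes that lies inside Sfmbt2, which encodes a Polycomb group protein and is expressed mainly from the paternal allele in early embryonic and extraembryonic tissue.

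On GRCm38, the build of the deposited data, Sfmbt2 spans chr2:10370510-10595253 on the plus strand. The 14 hairpin genes of the members all lie in 1 intron (intron 10 of 1 GENCODE M21 transcript, intron 11 of another), on the same strand as the host, within chr2:10473931-10507714 (33.8 kb). In order from the 5′ end these are Mir467c (chr2:10473931-10474027), 2 copies of Mir467a, Mir467b (chr2:10481248-10481320), 8 further copies of Mir467a, Mir467e (chr2:10505721-10505807) and Mir467d (chr2:10507630-10507714). The rows for mmu-miR-467a-5p and mmu-miR-467a-3p therefore each stand for 10 gene copies, while the other members have 1 gene each. How reads that match several copies or near relatives were assigned is not given in the sources used here, so the split between members of like sequence is uncertain. The sum over the family does not depend on how reads were split among its members. It would still miss any reads that were discarded or assigned to rows outside the family.

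In the table of RefSeq mature sequences used here (GRCm38.p6), 0 of the 10 members and 3 further miRNAs that carry the family number were matched. These 3 are shown because they share the name and lie elsewhere in the genome, and their seeds are in capitals:
mmu-miR-467f (chr11:69635419-69635439, minus strand): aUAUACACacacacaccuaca
mmu-miR-467g (chr5:34732872-34732892, minus strand): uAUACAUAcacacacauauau
mmu-miR-467h (chr9:115381898-115381919, plus strand): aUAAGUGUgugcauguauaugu
Their 3 seeds differ from each other. mmu-miR-467f and mmu-miR-467g had 0 counts in all 6 libraries, and mmu-miR-467h had 1 and 3 counts in serum, 0 and 0 in 2i and, for R2i, 0 and 1. The reads named miR-467 in these cells thus came almost wholly from rows placed in Sfmbt2.

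The members lie in 1 host gene, whose own transcript was not measured in these small RNA libraries. The 2 promoter windows that the RefSeq table gives for Sfmbt2 are shown as well (GRCm38.p6, plus strand). They were set by RefSeq start sites, and the first ends just upstream of the gene start in the GENCODE annotation used above. Matches to the GC box letters GGGCGG are in capitals, 1 in the first window and 4 in the second:
Sfmbt2, first window (chr2:10370201-10370500): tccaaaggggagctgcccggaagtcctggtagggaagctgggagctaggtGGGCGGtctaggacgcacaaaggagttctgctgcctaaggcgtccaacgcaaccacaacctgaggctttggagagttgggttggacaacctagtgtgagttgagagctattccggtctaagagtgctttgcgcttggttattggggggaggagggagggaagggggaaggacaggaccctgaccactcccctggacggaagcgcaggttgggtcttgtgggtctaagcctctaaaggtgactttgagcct
Sfmbt2, second window (chr2:10372186-10372485): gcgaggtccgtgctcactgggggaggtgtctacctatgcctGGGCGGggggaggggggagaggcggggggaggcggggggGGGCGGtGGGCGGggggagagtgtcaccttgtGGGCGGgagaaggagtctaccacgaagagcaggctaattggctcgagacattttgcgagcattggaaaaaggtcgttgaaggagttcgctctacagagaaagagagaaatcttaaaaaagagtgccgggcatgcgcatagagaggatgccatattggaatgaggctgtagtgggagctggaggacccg
Searched on both strands, GGGCGG occurred in 35.7% of the 32851 promoter windows of this length. No match was found in either Sfmbt2 window for TATAAA (13.6% of windows), for the octamer letters ATGCAAAT (1.74%) or for TTCCNGGAA, the letters of a STAT site (1.15%). The windows held 9 and 16 CpG, against a median of 7 over all windows, and their GC content was 57.7% and 60.0%.

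Library totals ran from 1041858 to 3593356 counts, and 1 count was worth between 0.278 and 0.960 CPM (the count scaled to a common library size). The miR-290 cluster (18 listed arms), the most abundant miRNA cluster of mouse ESCs, took 33.5% to 43.5% of each library. Every library thus carried miRNAs of the ESC label at a high level, with 3 or 4 of the 18 arms at 0 counts. Values below are CPM scaled by TMM, a correction for library composition, unless called counts. They are counts of reads per mature miRNA and are not divided by length.

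The most abundant member in serum was a 5p arm. mmu-miR-467c-5p stood at 2104 CPM in RB18 and 3035 in RB20, which placed it 52nd and 40th among the miRNAs of these libraries. It fell to 193 and 200 CPM in 2i and lay at 317 and 354 CPM in R2i. Both serum libraries were thus several-fold above every library of the inhibitor media, and both R2i libraries were above both 2i libraries. The 2 serum libraries differed from each other by more than any pair of libraries within 2i or R2i.

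mmu-miR-467a-5p measured 842 and 689 CPM in serum (RB18, then RB20, here and below), 122 and 118 in 2i and, for R2i, 196 and 214. The opposite arm, mmu-miR-467a-3p, measured 717 and 639 CPM in serum, 49.1 and 60.8 in 2i and, for R2i, 112 and 93.0. The arms of miR-467a were close to each other in serum and further apart in both inhibitor media. mmu-miR-467e-5p measured 582 and 697 CPM in serum, 70.0 and 66.9 in 2i and, for R2i, 128 and 125. mmu-miR-467d-5p measured 377 and 312 CPM in serum, 43.7 and 39.4 in 2i and, for R2i, 68.6 and 63.5. For all of these members the 3 media formed separate bands in the order serum, R2i, 2i, of which the step between R2i and 2i did not pass the test given further on.

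The remaining members were scarcer. mmu-miR-467b-5p measured 80.5 and 76.3 CPM in serum, 11.7 and 11.3 in 2i and, for R2i, 28.3 and 22.03. mmu-miR-467d-3p measured 69.5 and 58.5 CPM in serum, 5.83 and 6.41 in 2i and, for R2i, 8.58 and 7.15. mmu-miR-467e-3p measured 39.4 and 40.2 CPM in serum, 3.89 and 4.89 in 2i and, for R2i, 6.00 and 5.44. The bands of 2i and R2i lay close together for both of these 3p arms.

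The rarest members were the 3p arms of miR-467c and miR-467b. mmu-miR-467c-3p had 14 and 16 counts in serum, 2 and 1 in 2i and, for R2i, 1 and 7. mmu-miR-467b-3p had 6 and 11 counts in serum, 0 and 0 in 2i and, for R2i, 2 and 0. At these counts the 2 inhibitor media could not be ordered, but no 2i or R2i library reached either serum library. Over the 9 tested members, both serum libraries lay above every 2i and R2i library in 9 of 9, as they did in 32.4% of the 571 tested miRNAs. This count includes mmu-miR-467c-3p, which passed the filter through its serum libraries alone and so adds no support. Both R2i libraries lay above both 2i libraries in 8 of 9, as in 27.1% of all tested, the exception being mmu-miR-467c-3p.

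**Figure D1:**
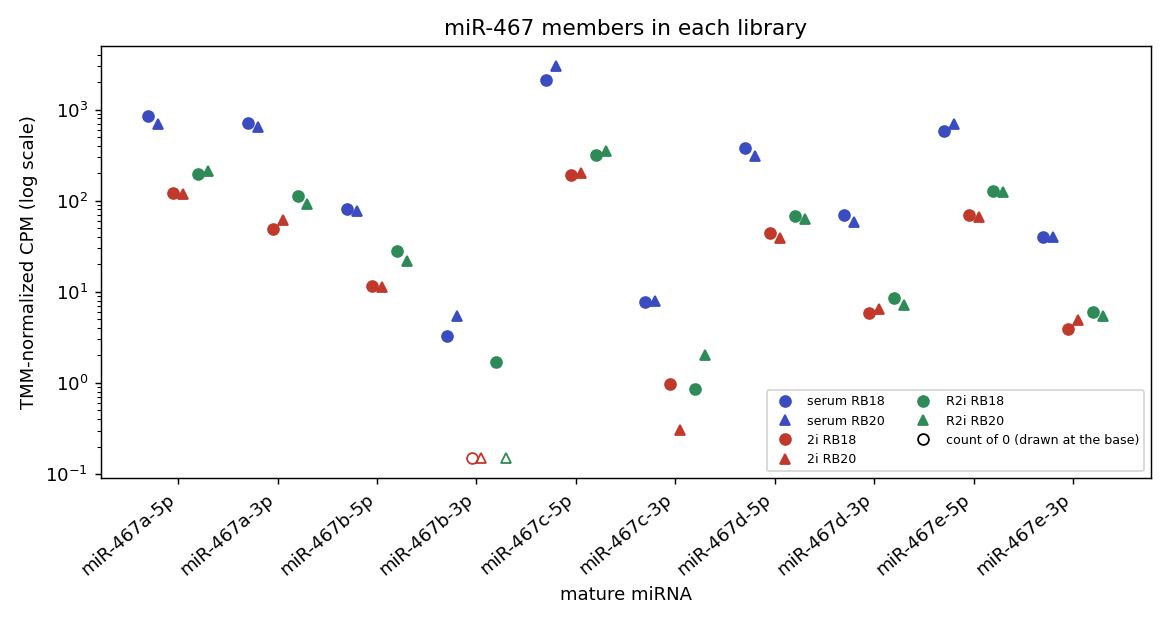
TMM-normalized CPM (y axis, log scale) of the 10 miR-467 members (x axis) in each of the 6 libraries, with medium by colour and line by symbol; open symbols at the base are counts of 0. For each of the 9 tested members the 2 serum libraries stand above all 2i and R2i libraries, as in 32.4% of the 571 tested miRNAs. Of these members, mmu-miR-467c-3p passed the filter through its serum libraries alone. The untested mmu-miR-467b-3p also lies higher in serum, but on few counts. Serum values run from mmu-miR-467c-5p at 2104 and 3035 CPM down to mmu-miR-467b-3p at 3.29 and 5.45 CPM, the latter on 6 and 11 counts.

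The first comparison was of 2i with serum, that is, serum-free N2B27 with MEK and GSK3 inhibitors against the conventional serum medium. The loss of serum, the N2B27 medium and the inhibitors came together, so their effects cannot be told apart. Each of the 9 tested members fell by more than 2-fold at an adjusted p under 0.01 (edgeR quasi-likelihood test, Benjamini-Hochberg over 571 miRNAs), against 17.3% of all tested miRNAs called lower. Of these members, mmu-miR-467c-3p passed the filter through its serum libraries alone, so its fall adds no support. Without the 2i library of RB20 the lower calls went from 99 to 58 over all tested miRNAs and from 9 to 8 among the members. The median log2 fold change was -3.22 over the members and -0.03 over all tested miRNAs. The largest decrease was that of mmu-miR-467c-5p, a log2 fold change of -3.71 (SE 0.29, adjusted p = 6.86e-05), or 13.1-fold. mmu-miR-467a-3p followed among the abundant members at -3.62 (SE 0.27, adjusted p = 6.86e-05), and mmu-miR-467e-5p stood at -3.22 (SE 0.25, adjusted p = 6.86e-05). The smallest decreases were those of mmu-miR-467b-5p at -2.77 (SE 0.26, adjusted p = 8.42e-05) and mmu-miR-467a-5p at -2.67 (SE 0.25, adjusted p = 8.42e-05), 6.81-fold and 6.35-fold. The remaining 3 well-counted members, mmu-miR-467d-3p, mmu-miR-467e-3p and mmu-miR-467d-5p, lay between at -3.37, -3.14 and -3.05. Whether any 2 members differed in their decrease was tested only between the arms of a hairpin.

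mmu-miR-467c-3p, at -3.65, had an SE of 0.76 and an adjusted p of 0.00492 in the same edgeR fit. Its call was lost when any 1 of the 6 libraries was left out (adjusted p 0.0107 to 0.0537) and with limma on the deposited log2 values (adjusted p = 0.0105), while its direction stayed. From the counts alone, it was 13.6-fold higher in serum than in 2i (exact 95% counting interval 4.23 to 69.6). mmu-miR-467b-3p, at 0 in both 2i libraries, was at least 3.55-fold higher in serum, taking 3 counts per library as the limit that a count of 0 allows. These are bulk libraries, in which fewer cells carrying a miRNA and less of it per cell cannot be told apart.

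The next comparison, of R2i with serum, had TGF-β receptor inhibition in place of GSK3 inhibition and likewise joined the inhibitors with the loss of serum. It uses the same 2 serum libraries, so its values are not independent of those above. In R2i, 8 of the 9 tested members were called lower, against 15.6% of all tested miRNAs (89 lower calls, which became 45 without the R2i library of RB18 and 49 without that of RB20, with 8 and 7 members called). This went with a median log2 fold change of -2.38 over the members and -0.07 over all tested miRNAs. mmu-miR-467d-3p showed the largest decrease at -3.05 (SE 0.29, adjusted p = 0.000171), or 8.30-fold, and mmu-miR-467c-5p the next at -2.94 (SE 0.28, adjusted p = 0.000171). mmu-miR-467e-3p and mmu-miR-467a-3p fell as well, with log2 fold changes of -2.81 and -2.73, and so did mmu-miR-467d-5p and mmu-miR-467e-5p, with -2.38 and -2.34. mmu-miR-467a-5p at -1.90 (SE 0.24, adjusted p = 0.000498) and mmu-miR-467b-5p at -1.66 (SE 0.25, adjusted p = 0.000982) were again the smallest called decreases.

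The call of mmu-miR-467b-5p was lost without the R2i library of RB20 (log2 fold change -1.47, adjusted p = 0.011, edgeR), the deepest library of the series. mmu-miR-467c-3p had a log2 fold change of -2.20 (SE 0.66, adjusted p = 0.0285, edgeR) and was not called, and its value was -3.10 without the R2i library of RB20 and -1.95 without that of RB18. Its counts gave 4.36-fold more in serum (exact 95% counting interval 1.95 to 11), and those of mmu-miR-467b-3p gave 9.88-fold more (2.35 to 88.2) on only 2 counts in R2i.

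The 2 inhibitor media were then compared with each other. No member was called, nor was any of the 571 tested miRNAs called higher in R2i (0%), while 2 were called lower (0.35%). All 9 tested members had positive log2 fold changes for R2i over 2i, between 0.31 and 1.45 with a median of 0.77, beside a median of -0.01 and 281 positive values over all 571 tested miRNAs. The upper end, mmu-miR-467c-3p, rests on few counts: it was 2.24 without the 2i library of RB18, 0.73 without that of RB20 and 0.54 without the R2i library of RB20. At an unadjusted p under 0.05, 6 of the 9 members were higher in R2i, beside 61 of all 571, and the lowest adjusted p among the members was 0.111 (edgeR). DESeq2 called 0 members as well, but gave 4 of them an adjusted p under 0.05 at less than 2-fold: mmu-miR-467e-5p (0.0144), mmu-miR-467c-5p (0.0337), mmu-miR-467a-3p (0.0348) and mmu-miR-467a-5p (0.0461), with log2 fold changes of 0.83 to 0.94 for the first 3 and 0.82 for the last.

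For mmu-miR-467b-5p the R2i level was 2.15-fold that in 2i (log2 1.103, 95% interval 0.49 to 1.72), and for mmu-miR-467c-5p it was 1.71-fold (log2 0.77, 0.17 to 1.38). For mmu-miR-467d-3p the log2 difference was 0.31 (-0.45 to 1.07) and for mmu-miR-467e-3p 0.34 (-0.52 to 1.19). These intervals, not adjusted for the number of miRNAs tested, include 0 for both 3p arms and a doubling for all 4 of these members. They exclude 0 for both 5p arms, whose adjusted p were 0.111 and 0.185 (edgeR), so neither was called. With 2 libraries per medium, a 2-fold difference was not settled for any of the 4, nor equality for the 3p arms. Within the lines, 8 of the 9 members had higher values in R2i in both RB18 and RB20, as did 34.7% of all tested miRNAs. The other was mmu-miR-467c-3p, whose R2i libraries held 1 and 7 counts.

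**Figure D2:**
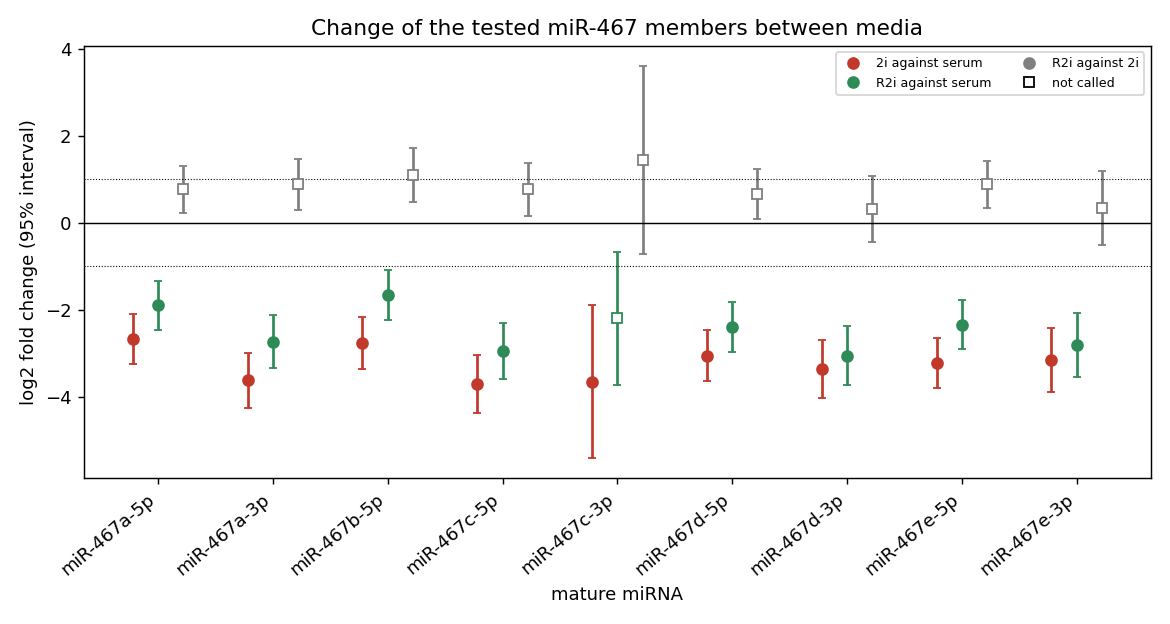
Log2 fold change (y axis; bars are 95% intervals of the edgeR fit, 2 libraries per medium) of the 9 tested miR-467 members (x axis) in the 3 comparisons; open squares were not called and dotted lines mark 2-fold. The points lie between -3.71 and -2.67 for 2i against serum, between -3.05 and -1.66 for R2i against serum, and between 0.31 and 1.45 for R2i against 2i.

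Summed over the family, the share of the library was 10.1-fold higher in serum than in 2i in both RB18 and RB20, and 5.21-fold and 5.80-fold higher than in R2i. R2i exceeded 2i by 1.94-fold in RB18 and 1.74-fold in RB20. With counts as the only source of error, the 95% Wilson interval of the summed share was 0.495% to 0.516% and 0.491% to 0.509% in serum, 0.0471% to 0.0532% and 0.0471% to 0.0519% in 2i, and 0.0911% to 0.103% and 0.0832% to 0.0893% in R2i. The intervals of different media were well separated. A permutation of 2 against 2 libraries cannot give an exact two-sided p below 0.3333, so no such test was made of the sums.

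The make-up of the family also varied between libraries. mmu-miR-467c-5p supplied 43.6% and 54.6% of the family's reads in serum, 38.5% and 39.3% in 2i and, for R2i, 36.5% and 39.97%. mmu-miR-467a-5p supplied 17.5% and 12.4% in serum, against 24.5% and 23.3% in 2i and 22.7% and 24.2% in R2i. mmu-miR-467e-5p held a steadier part, 12.1% and 12.5% in serum and 13.2% to 14.8% in the other libraries. The ratio of mmu-miR-467c-5p to mmu-miR-467a-5p was 2.50 and 4.41 in serum and lay between 1.58 and 1.69 in the 4 libraries of the inhibitor media. The serum libraries thus lay above the others in this ratio but also differed from each other far more than the others did. No test was made of these shares.

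The arms of 1 hairpin come from 1 transcript, so their ratio within a library does not depend on depth. The 5p arm was the more abundant in each of the 5 hairpins and each of the 6 libraries, but by very different margins. For miR-467c the 5p arm made up 99.4% to 99.8% of the reads of both arms. For miR-467e it made up 93.2% to 95.8%, for miR-467d 84.2% to 89.9%, and for miR-467b 93.3% to 100%, the last on as few as 24 reads of the 5p arm. miR-467a was the most even, with 54.0% and 51.9% from the 5p arm in serum, 71.4% and 66.1% in 2i and, for R2i, 63.8% and 69.7%.

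For miR-467a the 5p to 3p ratio was 1.17 and 1.08 in serum and between 1.76 and 2.50 in the 4 other libraries. The Wilson intervals of the 5p share reached 55.8% at most in serum and began at 58.7% or above elsewhere. In the edgeR test of arm use over 178 hairpins, the log2 fold change of the 5p arm exceeded that of the 3p arm by 0.95 for 2i against serum (unadjusted p = 0.0141, adjusted p = 0.38) and by 0.84 for R2i against serum (unadjusted p = 0.027, adjusted p = 0.621). Neither passed the limit. In the 2i comparison miR-467a ranked 3 of the 178 hairpins by p, and 19 of them had an unadjusted p under 0.05.

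For miR-467d the ratio was 5.42 and 5.34 in serum and between 6.14 and 8.88 elsewhere, and the difference between arms was 0.31 for 2i (adjusted p = 0.649, edgeR) and 0.67 for R2i (adjusted p = 0.621) against serum. For miR-467e and miR-467c the ratios in serum overlapped those of the other libraries. Serum ratios outside the range of the other 4 libraries were thus found in 2 of the 4 tested member hairpins, as in 21.9% of all 178. The share of hairpins called was 0% of 178 in each of the 3 comparisons, members included, with 19, 11 and 3 hairpins at an unadjusted p under 0.05 for 2i against serum, R2i against serum and R2i against 2i. DESeq2 was not run on arm use. Because a miR-467a row pools 10 gene copies, its ratio is an average over those copies.

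**Figure D3:**
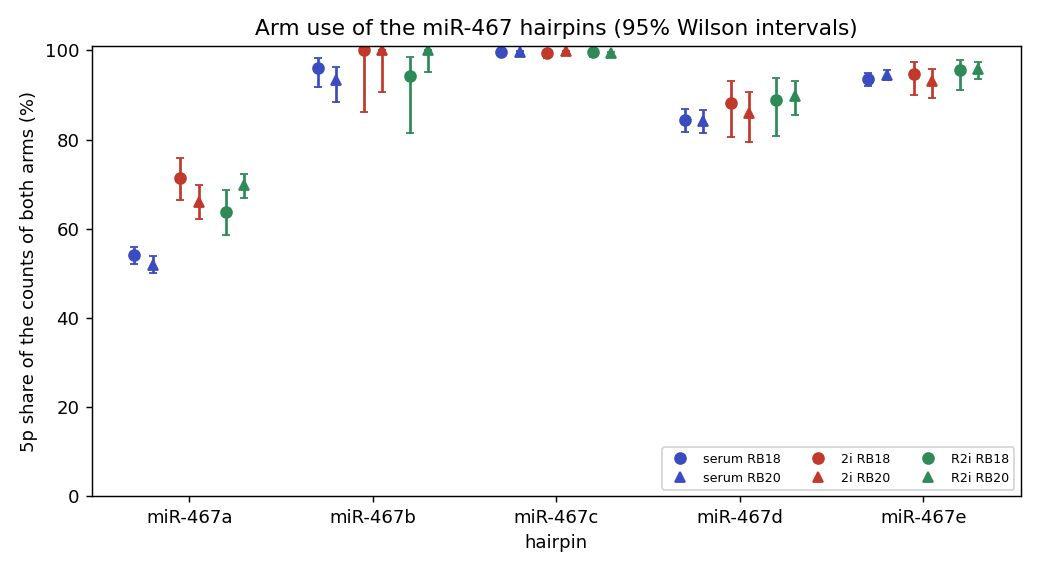
Share of the 5p arm in the reads of both arms (y axis, percent, with 95% Wilson intervals for counting error) for the 5 miR-467 hairpins (x axis) in each of the 6 libraries. miR-467a lies at 51.9% and 54.0% in serum and at 63.8% to 71.4% in the other libraries, while the other hairpins stay at 84.2% or above.

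The members were then set beside the rest of the locus, the 56 further mature miRNAs whose genes all lie inside Sfmbt2, of which 42 were tested. Placement by gene name left out 3 rows with genes only partly inside Sfmbt2. It also left out mmu-miR-466a, whose name matched no gene there although its gene may lie there. In 2i, 39 of the 42 were called lower than serum and the median log2 fold change was -3.08, beside 9 of 9 and -3.22 for the miR-467 members. In R2i, 35 of 42 were called lower with a median of -2.24, beside 8 of 9 and -2.38. For R2i against 2i, 0 of 42 were called, 41 of 42 had positive values and the median was 0.82, beside 0.77. Over all 571 tested miRNAs, 17.3% were called lower in 2i and 15.6% in R2i, and 281 had positive values for R2i against 2i. The 9 members include mmu-miR-467c-3p, which passed the filter through its serum libraries alone. The miR-467 values fell inside the range of their neighbours, which ran from -4.67 to -1.86 in 2i and from -3.66 to -1.35 in R2i. Both lower ends were those of mmu-miR-466h-3p, with an SE of 1.02 in 2i and 0.94 in R2i, where it was not called. The next lowest neighbour in R2i was mmu-miR-669p-3p at -3.42 (SE 0.57), beside -3.05 for mmu-miR-467d-3p.

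By family name, the called miRNAs in 2i were 15 of 17 for miR-466, 5 of 6 for miR-297 and 19 of 19 for miR-669, with medians of -2.96, -3.27 and -3.09. Of all tested miRNAs, 17.3% were called lower there. mmu-miR-669a-5p, with 12 gene copies the most abundant of these neighbours, had 3423 and 4134 counts in serum, 667 and 924 in 2i and, for R2i, 573 and 1842 (log2 fold changes -2.69 and -1.95 against serum). mmu-miR-669c-5p, from 1 gene, had 1311 and 2248 counts in serum, 178 and 282 in 2i and, for R2i, 205 and 601 (-3.41 and -2.40). The most abundant rows of miR-466, mmu-miR-466c-5p and mmu-miR-466b-3p, changed by -2.95 and -2.97 in 2i and by -2.25 and -2.20 in R2i. Those of miR-297, mmu-miR-297a-5p and mmu-miR-297a-3p, changed by -3.14 and -3.07 in 2i and by -2.24 and -2.22 in R2i. All 6 were called in both comparisons with serum.

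The members held a somewhat larger part of the locus in serum. They made up 38.3% and 39.0% of all reads placed in Sfmbt2 in serum, 31.7% and 33.8% in 2i and, for R2i, 33.8% and 32.6%. Summed over the 56 neighbours, the share of the library was 7.57-fold and 8.07-fold higher in serum than in 2i, beside 10.1-fold for the members in both lines. This difference was not tested.

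**Figure D4:**
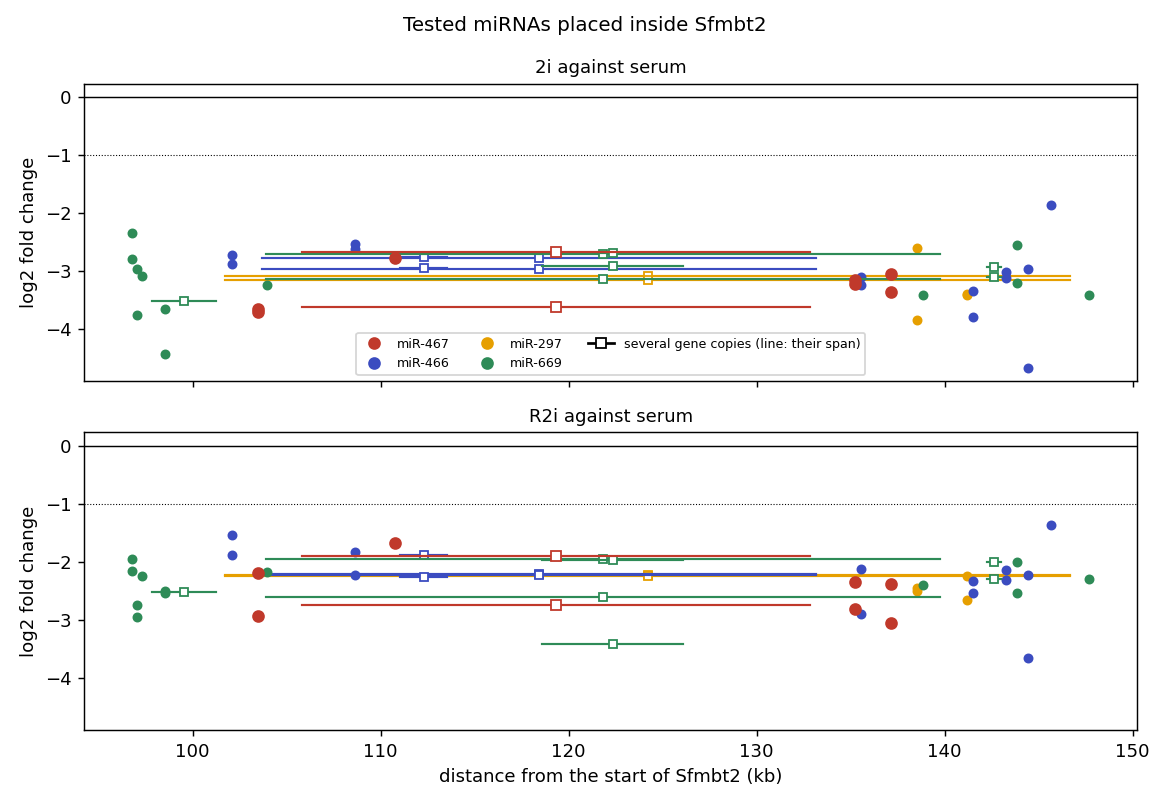
Log2 fold change against serum (y axis) of the 51 tested miRNAs placed inside Sfmbt2, by distance from the start of Sfmbt2 in kb (x axis), for 2i (top) and R2i (bottom); colours mark families, filled circles are single genes, and open squares with a line are miRNAs with several gene copies and their span. All 51 points lie below -1, and the miR-467 members lie among those of the other families between 103.4 and 137.1 kb.

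The single-copy 5p members can be read along the cluster, in which the size of the decrease did not rise or fall steadily with position. mmu-miR-467c-5p, from the 5′-most hairpin at 103.4 kb from the start of Sfmbt2, fell by 3.71 on the log2 scale in 2i, and mmu-miR-467b-5p, at 110.7 kb, fell by 2.77. mmu-miR-467e-5p at 135.2 kb and mmu-miR-467d-5p at 137.1 kb, the 3′-most, fell by 3.22 and 3.05.

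Across the 6 libraries the members followed a shared profile. The Pearson correlation of each tested member with the mean profile of the other members ran from 0.961 for mmu-miR-467c-3p to 0.997 for mmu-miR-467d-5p, on log2 TMM-normalized CPM. The 5 other tested miRNAs closest to the members' mean profile were mmu-miR-669e-5p (r = 0.998), mmu-miR-297a-5p (r = 0.997), mmu-miR-669f-5p, mmu-miR-669a-5p and mmu-miR-466e-3p (r = 0.996 each), and all 5 lie in Sfmbt2. These correlations are descriptions over 6 points that fall into serum and inhibitor media, and the points share libraries and depth. Outside the locus rows the closest was mmu-miR-203-3p, an epithelial miRNA, at r = 0.996, so a like profile was not limited to the cluster.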

How the data were processed

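Small RNA libraries of mouse ESCs in 3 media and 2 lines were analysed as deposited. The authors trimmed and aligned the reads and gave the counts per mature miRNA (1907 rows), which were deposited unscaled. The submitters' processing notes name FastQC 0.11.5, cutadapt 1.3, Bowtie 1.1.2, featureCounts 1.5 and mm10. The treatment of multimapping reads is not given in the sources used here, which bears on the near-identical rows of this locus. The authors also deposited log2 values for the 1233 miRNAs with a count, which equal log2(count / size factor + 1) to within 0.005. No column of values was left unused.

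Tests used the counts and edgeR 4.0.16 under R 4.3.3, with TMM factors (0.90 to 1.12), filterByExpr (minimum count 10, minimum total 15), and quasi-likelihood F tests with media as the only term. The limits of a call were an adjusted p of 0.01 and a 2-fold change. Standard errors are the log2 fold change over the root of F. Arm use was tested by diffSpliceDGE in the same fit, for hairpins with both arms tested. Fold changes within a line are on log2(CPM + 0.5). The scripts were tested on simulated data. Wilson intervals (95%) and limits from 3 counts cover counting error only, since reads carried no molecular identifiers, and p-values cover the spread between lines grown as pools.

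RB18 and RB20 pair the libraries, being the same line in each medium; their deviations correlated at 0.21 (serum and 2i), -0.13 (serum and R2i) and 0.24 (2i and R2i). MicroRNAs were placed by GENCODE M21 names and RefSeq synonyms on GRCm38 (1895 of 1907 placed), and a row belongs to the locus if all its genes lie in Sfmbt2. Named are the 10 members, the other miR-467 rows, the 2 most abundant of each neighbouring family and the 5 of most similar profile; mmu-miR-203-3p was added after its values were seen. The members and lists were chosen with earlier results of these data known. Alternatives were DESeq2 1.42.0, library totals, no filter, an adjusted p of 0.05, the deposited log2 values with limma 3.58.1, a block for the line, TMM-scaled denominators, and leaving out each library. Figures were drawn with matplotlib 3.10.9.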

Additional observations from a re-analysis of the deposited data

Results flagged for a closer look

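For 6 comparisons, values had opposite signs in RB18 and RB20, 1 library per line and medium, and whether the lines differ was not tested. The level of mmu-miR-467c-3p in R2i against 2i had a log2 difference of -0.12 in RB18 and 1.64 in RB20, on 1 to 7 counts per library. The log2 5p to 3p ratio of mmu-miR-467c differed by -0.47 in RB18 and 0.77 in RB20 for 2i against serum, by 0.43 and -1.11 for R2i against serum, and by 0.89 and -1.89 for R2i against 2i, with the 3p arm at 1 to 16 counts. That of mmu-miR-467e differed by 0.29 and -0.34 for 2i against serum, with 8 to 81 counts of the 3p arm. That of mmu-miR-467a differed by -0.50 and 0.24 for R2i against 2i.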

How the results depend on the processing

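All log2 fold changes of the members kept their sign under every alternative run. Under 11 alternatives each, the calls of 8 tested members in 2i against serum and of 7 of the 8 called members in R2i against serum held; the exceptions are given in the report (mmu-miR-467c-3p and mmu-miR-467b-5p), where without single libraries the value of mmu-miR-467c-3p in 2i ran from -4.43 to -2.93, and with limma it was -2.94. With cell line as a replicate block, 177 miRNAs were called in 2i against serum, 155 in R2i against serum and 0 in R2i against 2i, and the block changed no call of a member. Over all tested miRNAs, 2i against serum gave 195 calls, and 132 to 178 without single libraries. R2i against serum gave 175 calls, and 112 to 162 without single libraries, the lowest without R2i RB18. R2i against 2i gave 2 calls, 14 with DESeq2, 25 without the filter, and 0 to 2 without single libraries; the cause was not tested. Without the filter mmu-miR-467b-3p was called lower in 2i (adjusted p = 0.000426) and not in R2i (adjusted p = 0.0332). With library totals in place of TMM the median log2 fold change over all tested rows (R2i against serum) moved from -0.07 to 0.03. The mean family share with TMM-scaled totals was 0.519% in serum and 0.0504% in 2i. No arm difference was called under any alternative, but leaving out single libraries turned the sign of 9 values. The 5p minus 3p difference then ran, for 2i against serum, from -0.80 to 0.78 for miR-467c and from -0.24 to 0.15 for miR-467e; for R2i against serum, from -0.93 to 0.077 for miR-467c; and for R2i against 2i, from -0.31 to 0.073 for miR-467a and from -1.48 to 0.15 for miR-467c.
Sums over near-identical rows and a comparison of seed relatives were not run. Depth limits mmu-miR-467b-3p and mmu-miR-467c-3p, which had 0 to 16 counts per library.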
